A study of Mus musculus with 6 samples.

Results

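This account covers 10 genes used as markers of the choroid plexus epithelium, measured in RNA of mouse brain synaptosomes. Every non-control probe that the array files name Ttr, Kl, Folr1, Aqp1, Clic6, Kcnj13, Sostdc1, Otx2, Slc4a5 or Enpp2 was taken, which gave 15 probes of the 55681 on the array, and all 10 genes had at least 1. The RNA came from 3 knock-in samples (KI) and 3 wild-type samples (WT), each read once on a 1-colour Cy3 array. The sample names and the design text call the first group knock-in, while its genotype field reads knock-out. The allele, strain and age are not given in the sources used here, and the title of the series ties the study to FMR1 and the tremor/ataxia syndrome of its premutation carriers. All 6 samples have an RNA integrity number of 10. The labels give 0.2 µg of RNA for 5 of them and 0.0 µg for KI replicate 1. No label ties the samples to separate animals, and p-values then speak only to the scatter of these 6 preparations, part of which may be technical.

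The choroid plexus is the secretory tissue of the brain ventricles. Its epithelial cells make the cerebrospinal fluid, carry ions, water and folate across the blood-fluid barrier and secrete proteins such as transthyretin. A synaptosome preparation is meant to enrich pinched-off nerve terminals, so transcripts of these epithelial cells would be carried over from other tissue.

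Levels are given as log2 of the processed signal relative to the 75th percentile of the same array, so that 0 is the 75th percentile. The 75th percentile itself was 883, 909 and 910 in the KI arrays, against 578, 580 and 823 in WT replicates 1 to 3. WT replicates 1 and 2 were on slide 2, and the other 4 arrays were on slide 1. A spot is called well above background by the scanner software when its signal exceeds its background by a set margin, and 52.9% to 55.7% of non-control spots were so called. The 7 synaptic transcripts examined, among them Syt1, Snap25 and Syp, were well above background on all 6 arrays. So were the 6 oligodendrocyte, the 6 astrocyte and the 6 microglial markers, so the preparations held RNA of glia as well as of neurons.

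Across these arrays the 10 genes did not vary as one group, and none of them separated KI from WT past the test. Clic6 and Otx2 were high in KI replicate 1 and WT replicate 1, and Ttr was high in KI replicate 2 and WT replicate 1. Slc4a5 was above background only in KI replicates 1 and 2. The other 6 genes, Kl, Folr1, Aqp1, Kcnj13, Sostdc1 and Enpp2, varied less over the arrays. For Kl and 1 probe of Kcnj13, KI replicate 1 and WT replicate 1 were also the highest arrays, with ranges of 1.08 and 1.20. A single label does not describe these values, and the genes are therefore described one by one.

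**Figure D1:**
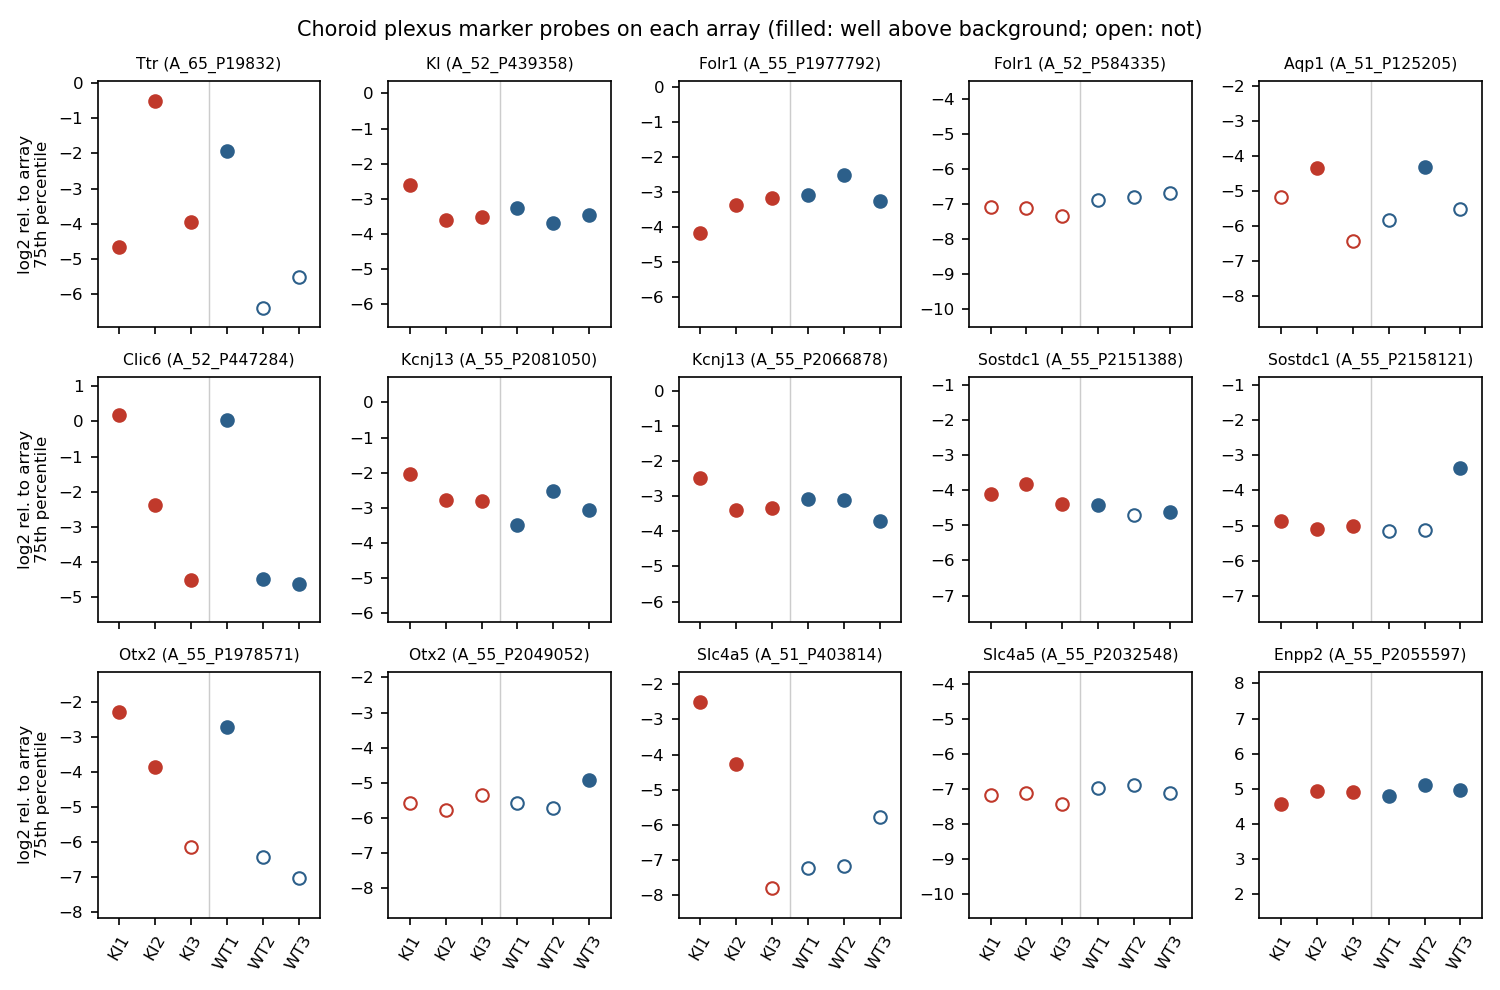
Level of each of the 15 probes on each array (log2 relative to the 75th percentile of that array), KI arrays in red at the left and WT arrays in blue at the right; each panel spans the same number of log2 units. Filled points were well above background and open points were not. Ttr, Clic6, 1 probe of Otx2 and 1 probe of Slc4a5 spread widely within both or 1 of the groups, and Enpp2 lay between 4.56 and 5.09 on all arrays.

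Among the secreted proteins, Ttr encodes transthyretin, the carrier of thyroid hormone and retinol-binding protein that the choroid plexus releases into the cerebrospinal fluid. Its single probe lies on chromosome 18 at 20828519 to 20828577 in mm9 coordinates, which are used throughout for probes, and covers the transcript from base 428 on. The processed signal was 34.8, 643.9 and 58.3 in KI replicates 1 to 3, against 151.6, 6.9 and 17.7 in WT replicates 1 to 3. Relative to the 75th percentile these are -4.66, -0.50 and -3.96 in KI, against -1.93, -6.40 and -5.54 in WT. Ttr was well above background on the 3 KI arrays and on 1 of 3 WT arrays. The groups overlapped, since WT replicate 1 lay above KI replicates 1 and 3. The highest array, KI replicate 2, was at least 59.8-fold over the lowest, WT replicate 2, which was not well above background. The mean was -3.04 ± 2.23 in KI and -4.62 ± 2.37 in WT (SD, n = 3 each), a difference of 1.58 (SE 1.48) with limma's adjusted p = 0.663, which became 0.54 (SE 0.77) with normexp background correction in place of the processed signal.

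Kl encodes klotho, a co-receptor of fibroblast growth factor 23 whose shed form occurs in cerebrospinal fluid. Its probe, on chromosome 5 at 151795712 to 151795771, read -2.62, -3.61 and -3.53 in KI and -3.26, -3.70 and -3.46 in WT. KI replicate 1 was the highest array and the other 5 lay within 0.44 of each other. The difference was 0.22 (SE 0.28, adjusted p = 0.747), and it was -0.095 without KI replicate 1 and 0.0034 with normexp.

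Sostdc1 encodes a secreted inhibitor of BMP and Wnt signalling. Its brighter probe, on chromosome 12 at 37044197 to 37044256, read -4.11, -3.83 and -4.40 in KI, against -4.41, -4.69 and -4.61 in WT. All 3 KI arrays lay above all 3 WT arrays, though KI replicate 3 and WT replicate 1 read nearly alike, and WT replicate 2 was not well above background. The difference was 0.46 (SE 0.17), with an adjusted p of 0.460 by limma, and it turned to -0.082 (SE 0.12) with normexp. Its exact permutation p was 0.1, and no lower one can be had with 3 arrays a group. The other probe, at 37044532 to 37044591 of the same transcript, went the other way. It read -4.87, -5.09 and -5.02 in KI and -5.16, -5.14 and -3.35 in WT, with WT replicate 3 far above the other 5 arrays and WT replicates 1 and 2 not well above background, and differed by -0.44 (SE 0.48, adjusted p = 0.707). With slide as a block, which sets the KI arrays against WT replicate 3 alone, this probe differed by -1.64 (SE 0.16, adjusted p = 0.111). The 2 probes of Sostdc1 thus disagreed in direction.

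Enpp2 encodes autotaxin, the secreted enzyme that makes lysophosphatidic acid, and oligodendrocytes express it as well as the choroid plexus. Its probe lies on chromosome 15 at 54670921 to 54670980 and was well above background on every array. It read 4.555, 4.926 and 4.897 in KI, against 4.78, 5.09 and 4.97 in WT, and its whole range was 0.54. The groups overlapped, and the difference was -0.16 (SE 0.15, adjusted p = 0.670). Enpp2 was higher in KI replicate 2 than in KI replicate 1 by 0.37, whereas Clic6 and Otx2 were lower there by 2.57 and 1.58. By the brightest probe of each gene, Ttr, Folr1, Aqp1 and Sostdc1 were also higher in KI replicate 2. Kl, Kcnj13 and Slc4a5 were lower there.

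Among the receptors, channels and transporters, Clic6 encodes a chloride intracellular channel protein. Its probe lies on chromosome 16 at 92541363 to 92541422 and was well above background on all 6 arrays. The processed signal was 1009.4, 174.4 and 39.9 in KI, against 590.5, 25.8 and 32.9 in WT, which is 0.19, -2.38 and -4.51 in KI and 0.03, -4.49 and -4.64 in WT on the scaled log2 axis. KI replicate 1 and WT replicate 1 differed by 0.16, while each stood more than 4 log2 units above the lowest arrays of its own group. The spread within each group was therefore wider than the difference between them, which was 0.80 (SE 1.62, adjusted p = 0.840), or 0.36 (SE 1.03) with normexp. The mean was -2.23 ± 2.36 in KI and -3.04 ± 2.66 in WT (SD, n = 3 each).

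Slc4a5 encodes a sodium bicarbonate cotransporter of the apical epithelial membrane. Its 2 probes lie on chromosome 6, at 83253664 to 83253723 and at 83249444 to 83249503, and start at bases 3848 and 3375 of the same transcript. They gave different results, and the first 30 of the 60 bases of each are shown to tell them apart:
A_51_P403814: ataccgaaaacatacagcttaaaatgccac
A_55_P2032548: gtaaagatccccatggaaggtatcccatct
The first probe read -2.49, -4.28 and -7.81 in KI, against -7.24, -7.18 and -5.77 in WT. It was well above background in KI replicates 1 and 2 and on 0 WT arrays. The KI mean was at least 2.27-fold over WT, where each WT array was taken at the lowest level of a probe well above background or at its own level if higher. The bound rested on KI replicate 1, without which no fold could be given. KI replicate 3 and the 3 WT arrays were not well above background, so their order says nothing. The second probe was above background on 0 of 6 arrays and read between -7.45 and -6.90. WT replicate 1, which was high for Clic6, Otx2 and Ttr, was not well above background for either probe of Slc4a5.

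Folr1 encodes a folate receptor that moves folate into the cerebrospinal fluid. Its brighter probe, on chromosome 7 at 109006846 to 109006905, read -4.19, -3.38 and -3.18 in KI and -3.11, -2.52 and -3.28 in WT. It was well above background on all 6 arrays and lowest in KI replicate 1, the array in which Clic6 was highest. The difference was -0.62 (SE 0.32, adjusted p = 0.516), and the groups overlapped. The other probe, at 109016972 to 109017031, was not above background on any array.

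Kcnj13 encodes an inwardly rectifying potassium channel, Kir7.1, of the apical membrane. Its probe on chromosome 1 at 89282991 to 89283050 read -2.05, -2.79 and -2.81 in KI, against -3.49, -2.53 and -3.06 in WT. The neighbouring probe at 89282859 to 89282918 read -2.49, -3.38 and -3.33 in KI, against -3.06, -3.10 and -3.69 in WT. Both were highest in KI replicate 1 and overlapped between groups, with differences of 0.48 (SE 0.31, adjusted p = 0.559, and 0.17 with normexp) and 0.22 (SE 0.29, adjusted p = 0.757). WT replicate 1 was the lowest array for the one and the second highest for the other.

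Aqp1 encodes the water channel of the apical membrane. Its probe on chromosome 6 at 55298480 to 55298539 was well above background only in KI replicate 2 and WT replicate 2. It read -5.19, -4.35 and -6.44 in KI and -5.82, -4.33 and -5.52 in WT, and the detected arrays, 1 in each group, were nearly alike. With so few arrays above background, Aqp1 and Slc4a5 did not enter the test across probes.

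Otx2, the only transcription factor in the group, is a homeodomain protein needed for choroid plexus development and kept on in the adult epithelium. It had 2 probes on chromosome 14, at 49277855 to 49277914 for a RefSeq transcript and at 49284952 to 49285011 for an Ensembl transcript, and they differed, so the first 30 of their 60 bases are given:
A_55_P1978571: tttcagggctgtgtggattgtgcgactgat
A_55_P2049052: gggacgtgtgcccctcggattatctcgtta
The first read -2.29, -3.87 and -6.16 in KI, against -2.71, -6.42 and -7.03 in WT, with processed signals of 181.0, 62.1 and 12.8 in KI and 88.2, 6.8 and 6.3 in WT. It was well above background in KI replicates 1 and 2 and in WT replicate 1. WT replicate 1 lay above KI replicates 2 and 3, so the groups overlapped. The mean was -4.11 ± 1.95 in KI and -5.39 ± 2.34 in WT (SD, n = 3 each), a difference of 1.28 (SE 1.39, adjusted p = 0.702). It was 0.68 in the authors' table and 0.088 (SE 0.45) with normexp. With arrays not well above background raised to the lowest level detected on each, it was 1.04 (SE 1.31). Only WT replicate 3 lay below that level and was changed. The second probe read between -5.77 and -4.93 on the 6 arrays and was well above background only in WT replicate 3, so it did not share the pattern of the first.

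The whole second probe of Otx2 was found in the promoter window of one of 4 Otx2 starts in the RefSeq promoter table of GRCm38.p6, at bases -227 to -168 from that start. Within it is the letter motif TAATCC, the core that OTX proteins are known to bind, read on the opposite strand as GGATTA. The window at chr14:48665303-48665332 of GRCm38.p6, minus strand, is shown with the motif in capitals:
Otx2 promoter: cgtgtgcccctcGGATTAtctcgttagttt
The table held 8 promoters of 5 of the 10 genes (Kl, Aqp1, Kcnj13, Otx2 and Slc4a5), and this was the only one with the motif on either strand. Of all 32851 promoters in the table, each running from 250 bases before to 50 bases after a start, 7.06% held it. The match is one of letters and was not tested as a binding site.

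In the comparison of KI with WT across the array, 0 of the 10 kept member probes passed limma's adjusted p of 0.05. A probe was kept when well above background on at least 3 of 6 arrays, which left 29329 probes, among them 10 of the 15 here from 8 genes. Over all kept probes 2 passed, or 0.00682%, both higher in KI. At an unadjusted p under 0.05 there was 1 member probe, that of Sostdc1, against 10.4% of all kept probes. The same probe was the only kept one of the 10 whose groups did not overlap, against 19.9% of all kept probes. Both shares are close to or below those of the array as a whole. The KI mean was higher for 7 of the 10, where 41.7% of all kept probes were higher, and the median difference was 0.34, against -0.05 over all kept probes. Leaving out KI replicate 1 brought that median to -0.05, and normexp brought it to -0.0064 with all arrays in. In bulk RNA of such preparations, the amount of tissue carried over, fewer cells of a type and less RNA per cell cannot be told apart.

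**Figure D2:**
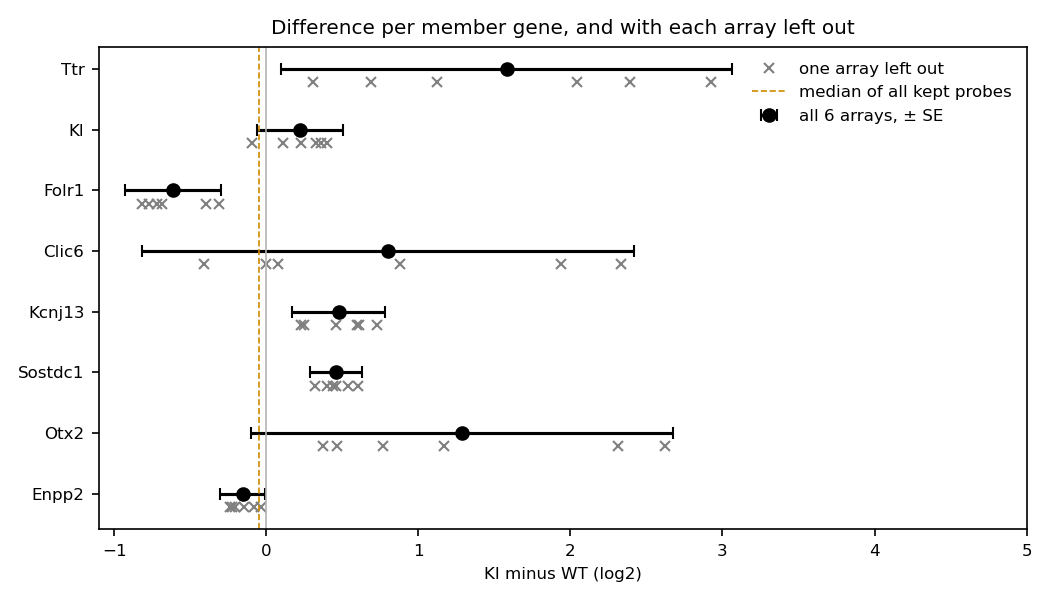
KI minus WT (log2) for the 8 genes with a kept probe, with the moderated SE of limma as bars; crosses below each point give the difference with each of the 6 arrays left out, and the dashed line is the median of all kept probes. The difference of Ttr lay between 0.31 and 2.93 on leaving out an array, and that of Clic6 between -0.41 and 2.34.

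The difference of the variable genes rested on single arrays. For Ttr it was 0.31 without KI replicate 2 and 2.93 without WT replicate 1. For Clic6 it was -0.41 without KI replicate 1 and 2.34 without WT replicate 1, and for Otx2 0.38 and 2.62 without the same arrays. Within slide 1, KI replicates 1, 2 and 3 lay above WT replicate 3 by at least 0.87, 5.04 and 1.57 for Ttr, which was not well above background there. For Clic6, detected on all arrays, the differences were 4.84, 2.26 and 0.13. For Otx2 they were at least 4.02 and 2.43 in KI replicates 1 and 2, while KI replicate 3 and WT replicate 3 were both not well above background. With slide as a block the 3 genes differed by 2.49 (SE 2.20), 2.41 (SE 2.28) and 2.93 (SE 1.88), each with an adjusted p of 0.984. The size of the difference from WT replicate 3 thus varied from array to array.

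The spread among arrays was wide for some of these genes. Of the 10 kept member probes, 3 had a range of at least 4 log2 units over the 6 arrays (Ttr, Clic6 and Otx2), against 143 of 29329 kept probes, or 0.488%. With arrays not well above background raised to the lowest level detected on each, 0.375% of kept probes reached 4. The ranges were then at least 5.90 for Ttr and 4.14 for Otx2, beside 4.84 for Clic6. The values of Ttr already lay above those levels, so its range did not change. A range of at least 1 was found in 8 of the 10, against 20.6% of all. The median range was 1.55 for the members and 0.57 for all kept probes. These shares and medians were not matched for signal level. Apart from Enpp2, the brightest kept probes of the member genes had low mean levels, from -4.75 for Otx2 to -2.63 for Clic6. Enpp2, with a mean level of 4.87, had a range of 0.54. Whether the wider ranges go beyond those of other probes of like level was not tested. The order of the arrays differed between Ttr, Clic6 and Otx2. From KI replicate 1 to KI replicate 2 the sign was opposite, as KI replicate 1 minus KI replicate 2 was -4.17 for Ttr, against 2.57 for Clic6 and 1.58 for Otx2.

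Likeness between genes was measured as the root mean square distance between log2 profiles over the 6 arrays, each centred on its own mean, so that a small value means a close profile. Clic6 and Otx2 lay 0.46 apart. The distance is not scaled by range, so genes that vary little can also lie close. Folr1 and Enpp2, for example, lay 0.35 apart, and Kl and Sostdc1 0.39. Against the mean profile of the 8 kept member genes, the 8 nearest of 13575 other named genes were Pde1c, Dmkn, Rtdr1, Spata13, Agbl2, Crybg3, Iqub and Gng7, at 0.19 to 0.26. Pde1c, a phosphodiesterase of cyclic nucleotides, read -1.88, -2.47 and -3.05 in KI, against -2.04, -3.405 and -3.33 in WT. Gng7, a G protein gamma subunit abundant in striatum, read 5.40, 4.55 and 3.65 in KI, against 5.00, 3.67 and 3.31 in WT. As the members themselves diverged, the nearest genes of Ttr, Clic6 and Otx2 were also taken singly, a choice made after their values were seen.

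Nearest to Ttr were Ccdc153 (1.11), Calml4 (1.16) and Tmem212 (1.23). Ccdc153 and Tmem212 were on the list of ependymal markers, the ciliated cells that line the ventricles, and Calml4, a calmodulin-like protein, was on the list of other choroid plexus genes. Ccdc153 read -1.51, -0.16 and -3.29 in KI, against -1.16, -4.72 and -5.85 in WT. Tmem212 read -3.98, -2.98 and -7.04 in KI, against -3.35, -7.02 and -7.30 in WT. Tmem212 was well above background only in KI replicates 1 and 2 and WT replicate 1, and Ccdc153 in KI and in WT replicate 1. Both were highest in KI replicate 2 and both were also high in KI replicate 1, where Ttr was not. No kept gene with a plain symbol lay nearer to Ttr than 1.11.

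Nearest to Otx2 were Drd2 (0.15), Slc35d3 (0.24), Serpina9 (0.27), Chat (0.31) and Adora2a (0.35), and among those nearest to Clic6 were Slc35d3 (0.26), Slc10a4 (0.33), Serpina9 (0.42) and Chat (0.44). Drd2 and Adora2a, the dopamine D2 and adenosine receptors of striatopallidal neurons, were on the list of striatal neuron markers. Chat makes acetylcholine in cholinergic neurons. Drd2 read -0.80, -2.54 and -4.34 in KI, against -1.28, -4.88 and -5.62 in WT, where only replicate 1 was well above background. Chat read -0.59, -2.60 and -4.54 in KI, against -1.11, -4.39 and -4.82 in WT. These genes were picked for their likeness to Clic6 or Otx2, so being high on the same arrays follows from the choice. The genes named here lay within 0.44, against 1.11 for the nearest of Ttr. The distances are descriptions over 6 arrays with no test, and the part of these neurons in the Clic6 and Otx2 signals was not tested.

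**Figure D3:**
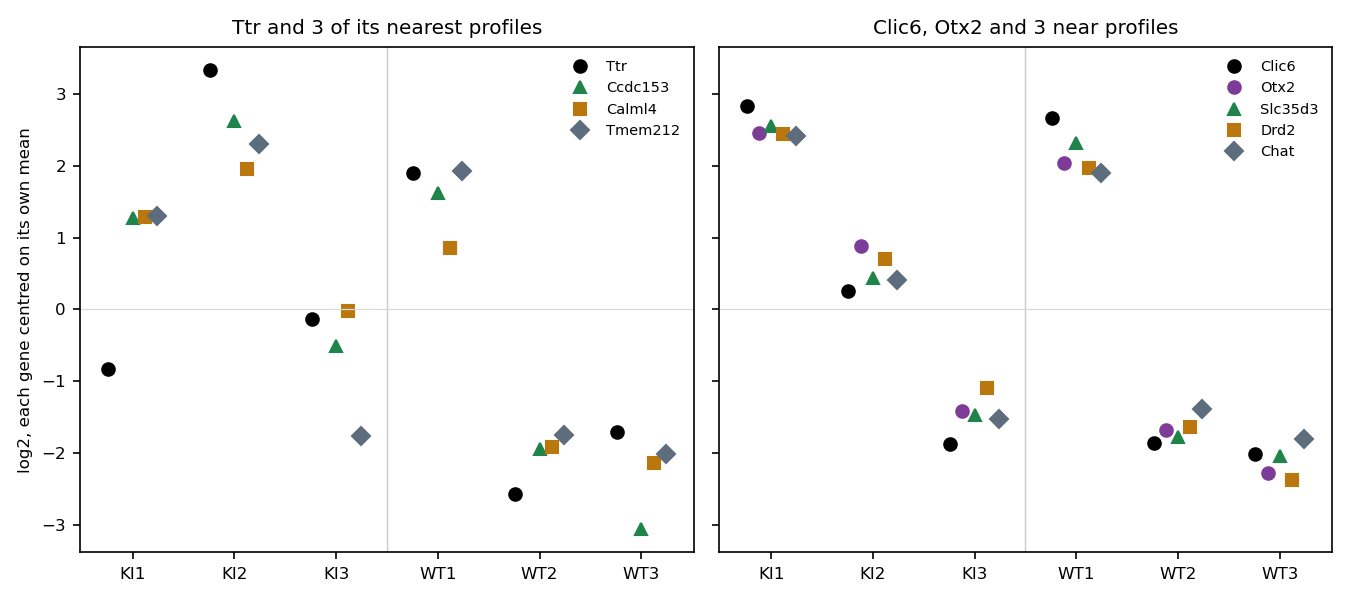
Centred log2 level on the 6 arrays, KI at the left and WT at the right. In the left panel Ttr is shown with 3 of its nearest genes, and Ttr lies below them in KI replicate 1. In the right panel Clic6 and Otx2 are shown with Slc35d3, Drd2 and Chat, which were chosen for their close profiles. All 5 are highest in KI replicate 1 and WT replicate 1.

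The marker lists place these patterns beside other cells. Each list is summarised as the mean, on each array, of its kept genes after centring each on its own mean. Striatal neuron markers read 1.90, 0.38 and -1.02 in KI, against 1.36, -1.26 and -1.36 in WT, with 7 of 7 higher in the KI mean and 0 called. Penk, Ppp1r1b and Tac1, the brightest of them, differed by 0.70 (SE 0.88), 0.58 (SE 0.55) and 0.42 (SE 0.93). The summed signal of all 7 striatal markers relative to the 75th percentile was between 49.98 and 272 in KI, against 45.5 to 193 in WT.

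Ependymal markers read 0.38, 0.90 and -0.50 in KI, against 0.68, -0.42 and -1.04 in WT, with 0 of 7 called and 5 higher in KI. Their 3 brightest, Rarres2, Dynlrb2 and Mia1, had ranges of only 0.87, 0.72 and 0.90 over the arrays, so Ccdc153 and Tmem212 carried most of the swing. The summed level of all 7 ependymal markers was between 3.75 and 5.72 in KI and between 2.95 and 5.28 in WT.

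Of 30 other choroid plexus genes, 29 were on the array and 18 were kept, 12 of them higher and 6 lower in the KI mean, with 0 called and a median difference of 0.08. Their mean swung little, at 0.23, 0.12 and -0.12 in KI, against 0.07, -0.04 and -0.27 in WT. Single genes of the list varied more than this mean, with ranges of 4.09 for Calml4 and 2.05 for Htr2c. Among the brightest of the list, Cab39l and Igfbp2 differed by -0.23 (SE 0.12) and 0.02 (SE 0.20). Kcne2, Tmem72, Cldn1, Cldn2, Cldn3, F5, Lmx1a and Krt8 were above background on 0 of 6 arrays by any probe. Kcne2 is a potassium channel subunit and Cldn2 the claudin of the leaky tight junction of this epithelium. Several genes of the list are expressed by neurons or other brain cells too.

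Of the remaining lists, oligodendrocyte markers were higher in the KI mean for 6 of 6 genes with 0 called. Mag and Mbp, among the brightest of them, differed by 0.26 (SE 0.18) and 0.56 (SE 0.43). The array means of all 6 oligodendrocyte markers lay between -0.03 and 0.39 in KI, against -0.47 and 0.10 in WT. The list thus did not follow Enpp2, which was highest in WT replicate 2 where the list was lowest. Meningeal and stromal markers were highest in KI replicate 1 (0.68) and lowest in WT replicate 1 (-0.65), and red blood cell markers were also highest and lowest there (0.75 and -0.46). Endothelial, astrocyte, microglial and synaptic lists moved by at most 0.70 between their highest and lowest arrays. The part of any of these cells in the values of the 10 genes was not tested.

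**Figure D4:**
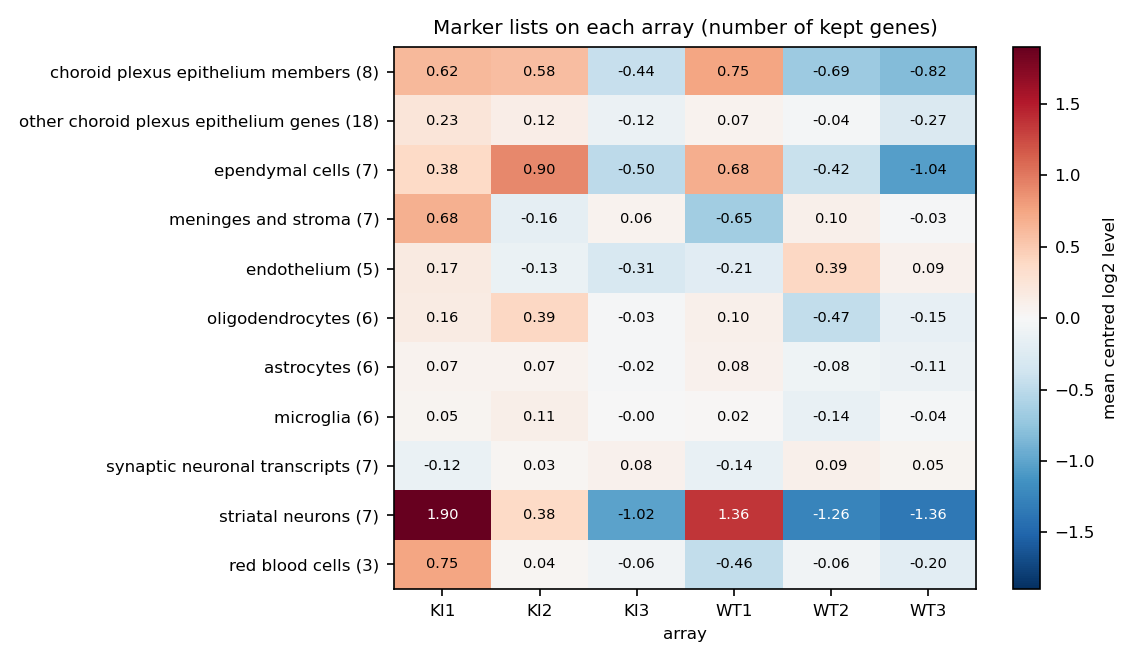
Mean centred log2 level of 11 marker lists (number of kept genes in brackets) on each array, KI columns at the left and WT columns at the right. The striatal list spans from 1.90 in KI replicate 1 to -1.36 in WT replicate 3, whereas the list of 18 other choroid plexus genes spans 0.50 in all.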

How the data were processed

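Per the labels' protocols, a low-input amplification kit with Cy3 was used to label total RNA. Per the file headers, spots were read with Feature Extraction 10.7.3.1, and the authors deposited for each of 62976 spots an intensity on a linear scale, raw and as a processed signal (background subtracted, detrended array by array, not normalized between arrays). The authors also deposited a table of log2 values, whose normalization the sources used here do not state; over non-control spots its column medians were 6.77 to 6.78 and its order within each array followed the raw median intensity. Probe positions are those of the array design on mm9, and all 10 symbols are current in RefSeq.

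From the processed intensity, control spots and spots marked as outliers were left out (outliers kept where a probe had no other spot), log2 values were set relative to the 75th percentile of each array, and spots of a probe were averaged. No probe was saturated. KI was compared with WT with limma 3.58.1 under R 4.3.3 (two-sided, lmFit then eBayes, Benjamini-Hochberg over all 29329 kept probes), with no block. Differences are KI minus WT. Single values also had an exact permutation test, two-sided, of the 6 arrays. On simulated data of this design, 100% of probes shifted by 1 log2 unit were recovered at the spread of a typical probe. That spread is narrower than that of Ttr, Clic6 and Otx2. Every simulated probe had the same spread, unlike the real probes, so this share checks the code and does not give the power of the test. Alternatives were normexp with an offset of 50, quantile and median scaling, the authors' table, other filters, 1 probe a gene, slide and replicate blocks, moderation with a trend, leaving out each array, and, added after seeing the data, raising values not well above background to the lowest detected level of the array. The members, lists and alternatives were chosen with earlier results of these data known. All probes of the members are described. Other genes named are the 3 brightest of a list, choroid plexus genes above background on 0 arrays, the 8 nearest profiles, and those said to be chosen after their values were seen; some of these are not reported here.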

Additional observations from a re-analysis of the deposited data

How the results depend on the processing

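Under all 18 alternatives 0 member probes passed the adjusted p of 0.05, and the lowest adjusted p of a member gene's brightest probe was 0.244. The median difference of the members, 0.34, stayed within 1 SD of the array medians (0.56) throughout, between -0.05 without KI replicate 1 and 0.48 without KI replicate 3 on leaving out one array, and was -0.0064 with normexp. Normexp, which adds an offset of 50, also brought Ttr to 0.54, Clic6 to 0.36, Kcnj13 to 0.17, Kl to 0.0034 and Otx2 to 0.088. Over 141 values of single member genes, 4 turned in sign: Sostdc1 to -0.082 with normexp, Kl to -0.095 and Clic6 to -0.41 without KI replicate 1, and Clic6 to -0.0021 without WT replicate 3. On leaving out one array Kl reached 0.401 at most and Clic6 2.34. The cause was not tested. The number of all probes past the threshold, 2, was 1 with normexp, 10 with slide as a fixed block, and 0 with the authors' table, without a filter, with the filter set to all 6 arrays, with the replicate block and with arrays not well above background raised to the array's lowest detected level (chosen after seeing the data); on leaving out one array it lay between 0 and 5. Without a filter the median of all probes moved by -0.12. Deviations of same-numbered samples correlated at 0.37, -0.04 and 0.22, which does not settle whether the replicate numbers pair the samples. KI replicates 1 and 3 were most like the same-numbered WT sample, and KI replicate 2 was most like WT replicate 3. With the replicate block the SE was 0.46 for Clic6 and 0.45 for Otx2, against 1.62 and 1.39 without it. For Ttr the SE was 1.70, against 1.48. Clic6 and Otx2 were singled out as high in both samples numbered 1, so their lower SE follows from that pattern. It does not settle the pairing either. The replicate block left 0 member probes past the threshold. Aqp1 and Slc4a5 were tested only without the filter (adjusted p = 0.938 and 0.4498). For Aqp1, Otx2, Slc4a5 and Ttr, arrays near background limit the precision, and with 3 arrays a group a difference such as that of Ttr (SE 1.48) could not be told from 0.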
